A study of Mus musculus with 15 samples.

Results

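The 8 genes described here are protein-coding neighbours of the transcriptional repressor gene Gfi1 on mouse chromosome 5: Btbd8, Glmn, Rpap2, Evi5, Mtf2, Tmed5, Ccdc18 and Dr1. They were chosen by their place in the genome, and all 8 were found among the 35533 gene symbols of the expression table. Their levels were read in 15 bulk RNA-seq libraries of hematopoietic stem cells (HSCs), gated as CD150+ and CD48− within the c-Kit+ Sca1+ lineage-negative population, to ask whether the alleles engineered into the Gfi1 locus go along with altered expression of nearby genes. All mice were homozygous at the locus and had received no treatment, and each genotype had 3 libraries. GFI1-KD mice carry human GFI1 in the murine locus together with a Neo cassette that runs against the direction of transcription, which lowers GFI1 expression. Gfi1-KO mice lack Gfi1. GFI1-36N mice carry the 36N variant of human GFI1, GFI1-KI mice carry human GFI1 (36S) and Gfi1-WT mice have the unmodified murine gene. Whether the Gfi1-KO, GFI1-36N and GFI1-KI alleles hold a cassette, and the age, sex and strain of the mice used for RNA-seq, are not given in the sources used here. No source says that the 3 libraries of a genotype came from separate animals, so p-values measure the spread between these libraries, which may be technical.

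Gfi1 is a zinc finger repressor that acts in HSCs and in granulocyte development, and its DNA site has the core AATC. In some engineered mouse lines a selection cassette left in a locus is known to alter the expression of genes beside it, which is why neighbours are read along with the targeted gene. The interval between Gfi1 and Evi5 is a known place of retroviral insertion in murine T cell lymphoma, which is how Evi5 got its name. Among the neighbours, Mtf2, Dr1 and Rpap2 work in transcription, Glmn, Evi5 and Ccdc18 in protein turnover and cell division, and Tmed5 and Btbd8 in membrane traffic.

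In GRCm38 the 8 genes span both sides of Gfi1, which lies from 107716657 to 107726036 on the minus strand. On the lower side stand Btbd8 (107437997 to 107511207, plus strand, ENSMUSG00000111375), Glmn (107548967 to 107597888, minus strand, ENSMUSG00000029276) and Rpap2 (107597373 to 107661838, plus strand, ENSMUSG00000033773). On the upper side, upstream of the Gfi1 start, stand Evi5 (107744795 to 107875107, minus strand, ENSMUSG00000011831) and Mtf2 (108065674 to 108109004, plus strand, ENSMUSG00000029267). They are followed by Tmed5 (108106366 to 108132620, minus strand, ENSMUSG00000063406), Ccdc18 (108132875 to 108233628, plus strand, ENSMUSG00000056531) and Dr1 (108268897 to 108280526, plus strand, ENSMUSG00000029265). Evi5 is the nearest, with a gap of 18.8 kb to Gfi1, and Rpap2 follows at 54.8 kb, whereas Dr1 is the farthest at 542.9 kb. Glmn and Rpap2 overlap by 516 bases on opposite strands and Mtf2 and Tmed5 by 2639 bases at their 3′ ends. Btbd8 shares 3587 bases with the gene model Gm42669 on the same strand. As the strand of the libraries is not stated, reads from such overlaps may not be told apart between the partners.

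Several of these genes share a promoter region, and the sequences below show where the pairs are joined and where the core of the Gfi1 site occurs. They are RefSeq windows on GRCm38.p6 that run from 250 bases before to 50 bases after an annotated start, with AATC, or its reverse complement GATT, in capitals. The first is chr5:108132664-108132963 on the plus strand, of which 207 bases also lie in the window of Tmed5 on the other strand. The second, chr5:107597711-107598010 on the plus strand, shares 172 and 179 bases with the 2 windows of Glmn. Next, chr5:107597123-107597422 on the plus strand is shown for its 7 matches to AATC. The fourth is the window of Evi5, the nearest neighbour, at chr5:107868999-107869298 on the minus strand. The fifth, chr5:108065424-108065723 on the plus strand, belongs to Mtf2, the neighbour with the lowest p-values.
Ccdc18 and Tmed5, shared window: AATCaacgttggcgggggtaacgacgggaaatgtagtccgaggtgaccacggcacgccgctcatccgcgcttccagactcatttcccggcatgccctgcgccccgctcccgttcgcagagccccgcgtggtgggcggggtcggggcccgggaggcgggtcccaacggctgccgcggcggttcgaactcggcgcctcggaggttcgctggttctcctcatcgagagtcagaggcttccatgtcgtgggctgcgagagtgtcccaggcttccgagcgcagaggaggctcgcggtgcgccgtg
Rpap2, upper RefSeq start: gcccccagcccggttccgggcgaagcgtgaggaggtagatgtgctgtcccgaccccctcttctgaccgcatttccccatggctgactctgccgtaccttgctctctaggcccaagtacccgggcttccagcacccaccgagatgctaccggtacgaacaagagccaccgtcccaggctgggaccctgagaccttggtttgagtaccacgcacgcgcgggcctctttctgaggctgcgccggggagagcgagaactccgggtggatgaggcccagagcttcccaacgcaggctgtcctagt
Rpap2, lower RefSeq start: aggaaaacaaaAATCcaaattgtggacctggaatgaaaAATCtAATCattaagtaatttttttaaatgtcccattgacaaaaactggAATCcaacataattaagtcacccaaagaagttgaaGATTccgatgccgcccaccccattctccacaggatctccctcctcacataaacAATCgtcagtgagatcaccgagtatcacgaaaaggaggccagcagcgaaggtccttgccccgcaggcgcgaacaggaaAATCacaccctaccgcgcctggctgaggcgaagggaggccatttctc
Evi5: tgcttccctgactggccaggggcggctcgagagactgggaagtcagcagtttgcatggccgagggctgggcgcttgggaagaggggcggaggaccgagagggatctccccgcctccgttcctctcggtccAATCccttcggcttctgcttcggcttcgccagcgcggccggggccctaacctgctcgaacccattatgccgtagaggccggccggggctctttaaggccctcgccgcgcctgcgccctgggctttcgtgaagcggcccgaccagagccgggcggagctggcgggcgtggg
Mtf2, first RefSeq start: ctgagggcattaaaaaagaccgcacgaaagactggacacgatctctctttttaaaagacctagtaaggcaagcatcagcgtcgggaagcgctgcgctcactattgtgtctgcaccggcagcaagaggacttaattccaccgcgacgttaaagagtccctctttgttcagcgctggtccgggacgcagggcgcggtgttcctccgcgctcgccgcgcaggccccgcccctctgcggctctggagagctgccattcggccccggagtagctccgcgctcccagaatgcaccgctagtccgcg
AATC occurs on at least 1 strand in 73.11% of the 32817 RefSeq promoter windows of this length, with a median of 1 match. Apart from the Rpap2 window with 7, the windows of the 8 genes hold 0 to 2 matches, so that a match is the usual state and is a description of letters only. The Ccdc18 window has 39 CpG and the Tmed5 window 37, against a median of 7 over all windows.

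The libraries held 16.22 to 20.64 M estimated counts, and 13358 genes passed the filter on low counts, among them Gfi1 and all 8 neighbours. Libraries of a genotype differed much: the biological coefficient of variation that edgeR estimated in common for all genes was 1.39, and the median standard error was 1.62 on the log2 scale. Of 9820 genes with a mean of at least 100 estimated counts, 45% were at 0 in at least 1 library. GFI1-36N replicate 3 had the fewest genes above 0 (9415, against up to 15125) and a median Spearman correlation with the other libraries of 0.711 over all symbols. GFI1-KD replicate 1 followed with 0.804, and the others reached 0.863. The genes of the sort gate were read, Kit at 158.7 to 824.4 and Slamf1 (CD150) at 1.29 to 412 CPM (counts per M counts, scaled by TMM), while Ly6a (Sca1) was at 0 to 97.1 CPM, with 0 in Gfi1-WT replicate 3. In Gfi1-KO replicate 2 Slamf1 was at the lowest of these values and Cd48, which the gate excludes, at 502 CPM. The 4 granulocyte genes summed to 52.0 to 168 CPM in GFI1-KD, 0 to 2750 CPM in Gfi1-KO, 0.05 to 62.3 CPM in GFI1-36N, 0 to 1050 CPM in GFI1-KI and 1.2 to 47.2 CPM in Gfi1-WT, with Ly6g at 0 in all 15 libraries. The T and NK cell genes (Cd3e, Cd8a and Nkg7) summed to 409 to 489 CPM in GFI1-KD, 296 to 938 CPM in Gfi1-KO, 123 to 285 CPM in GFI1-36N, 227 to 264 CPM in GFI1-KI and 138 to 328 CPM in Gfi1-WT. GFI1-KD was thus above GFI1-KI and Gfi1-WT in every library, with Cd3e at 0 throughout and Cd8a at 0.57 CPM or less, so that nearly all of the sum was Nkg7. The 3 megakaryocyte genes summed to 377 to 1372 CPM in GFI1-KD, 42.8 to 2539 CPM in Gfi1-KO, 519 to 842 CPM in GFI1-36N, 337 to 593 CPM in GFI1-KI and 279 to 758 CPM in Gfi1-WT. Monocyte, B cell and erythroid genes reached at most 178, 10.5 and 174 CPM in any library, and the part of all these markers in the results was not tested. In the libraries labelled Gfi1-KO, Gfi1 was read at 105, 54.5 and 0 estimated counts, against 4.85, 0 and 0 in Gfi1-WT, and did not pass the test (log2 fold change 4.96, SE 3.47, edgeR adjusted p = 1). In mice with human GFI1, Gfi1 was read at 0, 0 and 267 estimated counts in GFI1-KD and 422, 73.3 and 0 in GFI1-36N. In GFI1-KI it was at 0, 126 and 31.2. Over the 15 libraries Gfi1 was at 0 in 7 and under 10 estimated counts in 8. Gfi1 thus went against the label in Gfi1-KO and Gfi1-WT, but without a call, and these values cannot decide whether the labels hold. Genotypes are named here as the libraries are labelled, and the mouse cDNA set used for counting does not hold human GFI1.

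The neighbours were expressed at very different levels, with Mtf2 and Tmed5 far above the rest. Per kilobase of transcript, the median level over the 15 libraries was 108.9 CPM for Mtf2 and 61.1 CPM for Tmed5. Glmn, Rpap2, Ccdc18 and Dr1 lay together at 19.0, 17.7, 15.6 and 12.5 CPM per kilobase, Evi5 at 2.88 and Btbd8 at 0.028. In bulk samples a lower level cannot be told apart from fewer cells that express a gene. Mtf2, Tmed5 and Dr1 were above 0 in all 15 libraries. Of the 120 values of the 8 genes, 18 were at 0: 3 in GFI1-KD, 2 in Gfi1-KO, 6 in GFI1-36N, 3 in GFI1-KI and 4 in Gfi1-WT. GFI1-36N replicate 3 alone held 4 of them, and Gfi1-WT replicate 3 held 3. A value of 0 occurred in 7 libraries for Btbd8, in 6 for Evi5, in 3 for Rpap2 and in 1 each for Glmn and Ccdc18.

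**Figure D1:**
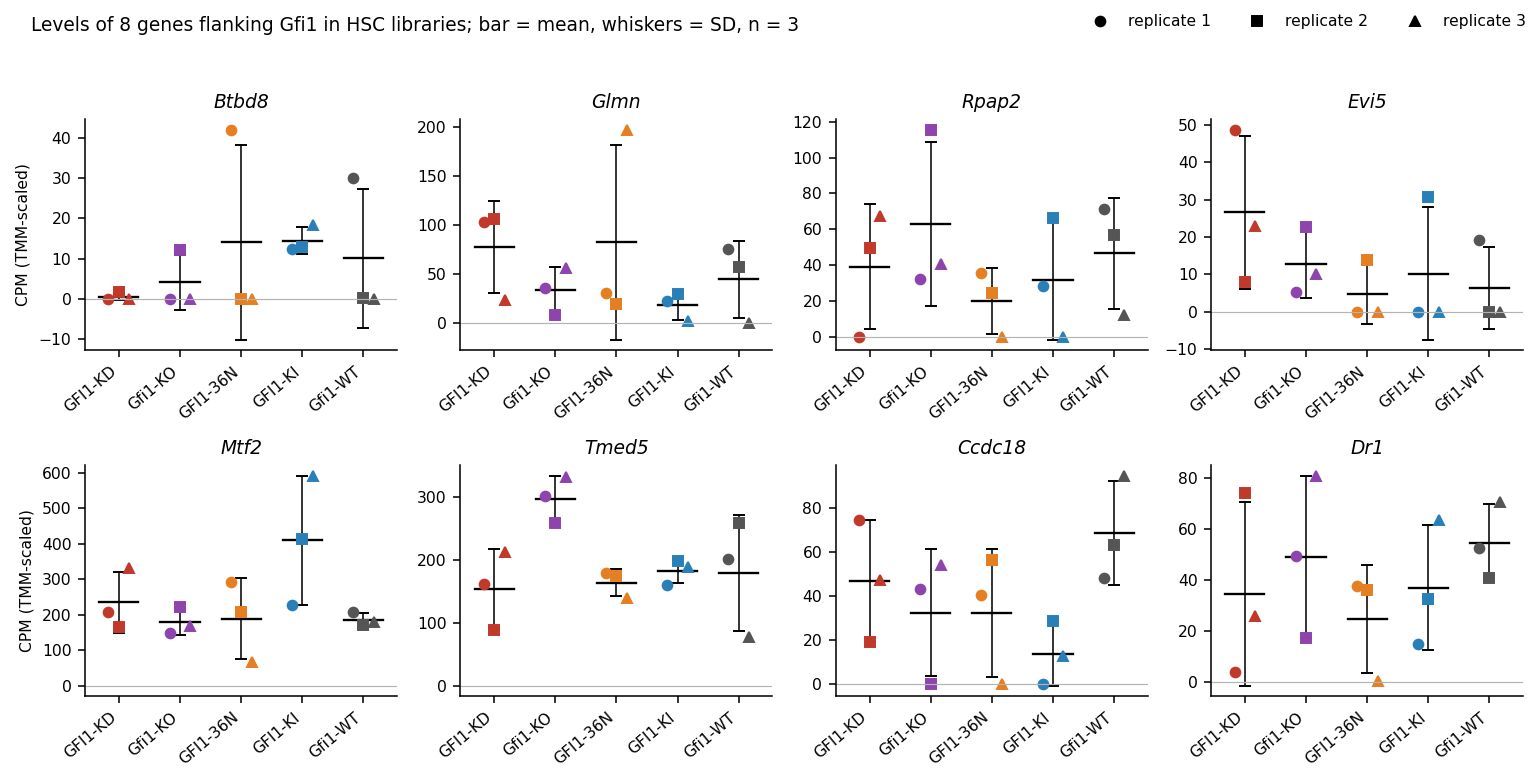
Level of each gene in each library (y axis, TMM-scaled CPM, linear, 1 scale per panel) by genotype, with points for replicates, a bar for the mean and whiskers for the SD (n = 3). Mtf2 and Tmed5 are above 0 in every library, whereas Btbd8 is at 0 in 7 and Evi5 in 6 of the 15.

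No neighbour passed the test in any of the 5 comparisons (edgeR quasi-likelihood test, Benjamini-Hochberg adjusted p of 0.981 or 1 for all 8 genes). With edgeR, 0% of the 13358 genes tested passed in GFI1-KD against GFI1-KI, 0% in GFI1-KD against Gfi1-WT, 0% in Gfi1-KO against Gfi1-WT, 0% in GFI1-36N against GFI1-KI and 0% in GFI1-KI against Gfi1-WT. With DESeq2, which gave an adjusted p for all neighbours but Btbd8, 0 of the 8 passed in each comparison. Of all genes with an adjusted p DESeq2 called 1.19% in GFI1-KD against GFI1-KI, 1.15% in GFI1-KD against Gfi1-WT, 1.19% in Gfi1-KO against Gfi1-WT, 2.56% in GFI1-36N against GFI1-KI and 0.78% in GFI1-KI against Gfi1-WT. At an unadjusted p under 0.05 with edgeR stood 0 of 8 neighbours in GFI1-KD against GFI1-KI (2.49% of all genes), 0 in GFI1-KD against Gfi1-WT (2.7%) and 0 in Gfi1-KO against Gfi1-WT (3.07%). It was 1 of 8 in GFI1-36N against GFI1-KI (4.6%) and 1 of 8 in GFI1-KI against Gfi1-WT (2.09%), which was Mtf2 both times. The values of the 2 genotypes did not overlap for 1 of 8 neighbours (Btbd8) in GFI1-KD against GFI1-KI, beside 9.09% of all genes. The count was 0 in GFI1-KD against Gfi1-WT (8.27%), 0 in Gfi1-KO against Gfi1-WT (8.95%) and 0 in GFI1-36N against GFI1-KI (9.57%). In GFI1-KI against Gfi1-WT it was 2 of 8, Mtf2 and Ccdc18, beside 8.65% of all genes.

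The neighbours did not share a direction. In GFI1-KD against GFI1-KI, 4 had a positive and 4 a negative log2 fold change, with a median of 0.10 (0.00 over all genes). In GFI1-KD against Gfi1-WT 3 were positive and 5 negative (median −0.24), and in Gfi1-KO against Gfi1-WT likewise 3 and 5 (median −0.10, against −0.03 over all genes). In GFI1-36N against GFI1-KI 2 were positive and 6 negative, with a median of −0.37 (−0.08 over all genes). In GFI1-KI against Gfi1-WT there were 4 of each, with a median of −0.27 (0.00 over all genes). These comparisons share GFI1-KI and Gfi1-WT libraries and are not independent of each other. The effect in GFI1-KD (against GFI1-KI) was also compared with that in Gfi1-KO (against Gfi1-WT), and edgeR gave an adjusted p of 1 for the difference in all 8 genes.

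**Figure D2:**
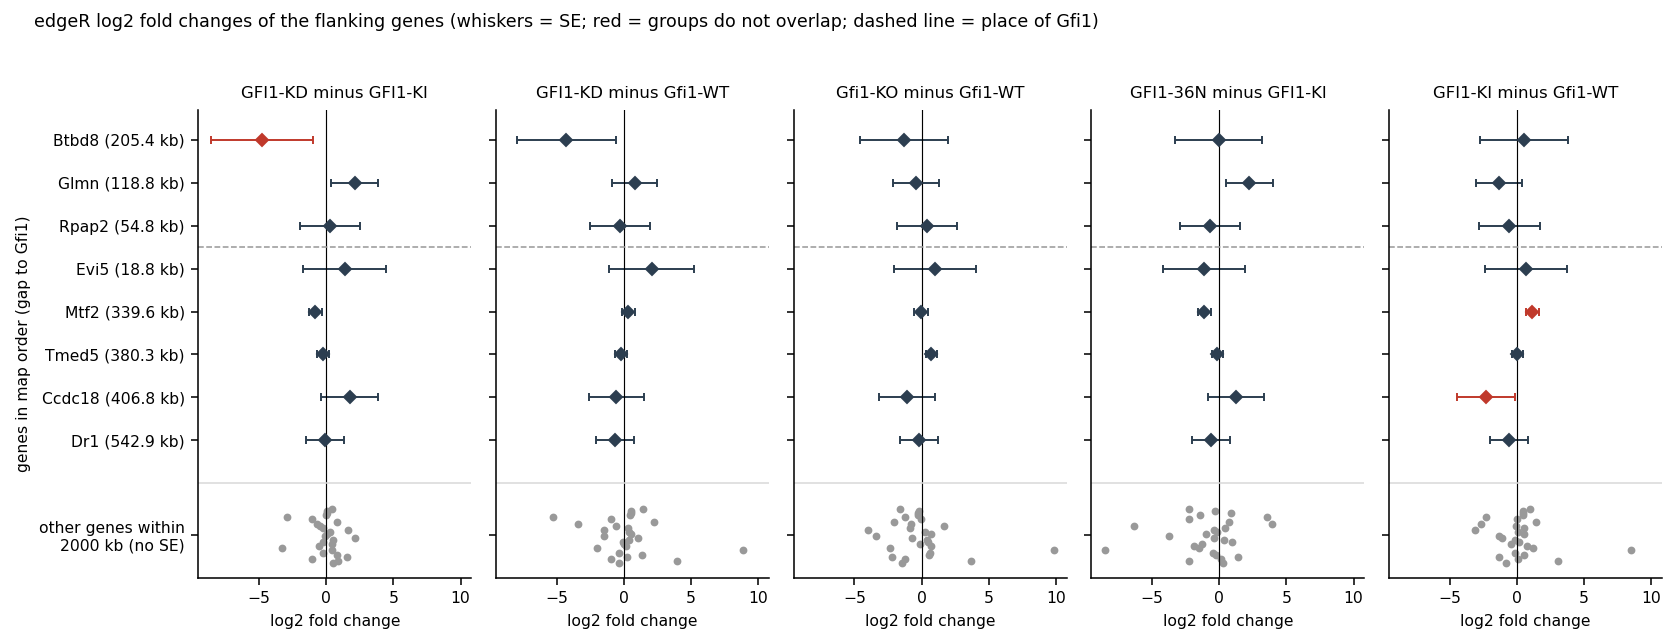
edgeR log2 fold change (x axis) of the 8 genes in map order with their gap to Gfi1 (y axis), 1 panel per comparison; whiskers are SE, red marks genes whose 2 genotypes do not overlap, the dashed line is the place of Gfi1, and grey points are the 27 other tested genes within 2000 kb. Mtf2 and Tmed5 have the shortest whiskers, with an SE of 0.49 and 0.42, and Btbd8 in GFI1-KD against GFI1-KI lies lowest of the 8, at −4.79.

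Mtf2 encodes a Polycomb-like protein that brings the histone methyltransferase complex PRC2 to CpG-rich DNA. Its level was 208, 166 and 331 CPM in GFI1-KD, 150, 222 and 168 CPM in Gfi1-KO and 293, 209 and 65.9 CPM in GFI1-36N HSCs. It was 228, 413 and 591 CPM in GFI1-KI and 207, 170 and 179 CPM in Gfi1-WT HSCs. At the gene level, every GFI1-KI library was thus above every Gfi1-WT library, and every Gfi1-KO library was below every GFI1-KI library. GFI1-KD and GFI1-36N overlapped with both GFI1-KI and Gfi1-WT. The separation of GFI1-KI did not hold in sums over transcripts, where its replicate 1 had 4730 estimated counts and Gfi1-KO replicate 2 had 5436. Gfi1-WT replicate 2 had 4567, and was above GFI1-KI replicate 1 once scaled by TMM library size (17.26 and 18.68 M). Mtf2 averaged 410.6 ± 181.8 CPM in GFI1-KI and 185.5 ± 19.6 CPM in Gfi1-WT HSCs (SD, n = 3 each). The log2 fold change was 1.15 (SE 0.49, 95% interval 0.09 to 2.21), with an unadjusted edgeR p of 0.0363 and an adjusted p of 1. Compared to GFI1-KI, Mtf2 had a log2 fold change of −1.12 in GFI1-36N (SE 0.49, interval −2.18 to −0.06, unadjusted p = 0.0402, edgeR adjusted p = 0.981). With each library left out in turn this value ran from −1.58 (without GFI1-36N replicate 1) to −0.71 (without GFI1-36N replicate 3, the library with the fewest genes). In GFI1-KD it was −0.80 (SE 0.49, interval −1.86 to 0.25, edgeR adjusted p = 1), with a range of −1.13 (without GFI1-KD replicate 3) to −0.44 (without GFI1-KI replicate 3). These values all rest on the same 3 GFI1-KI libraries, and the log2 fold change of GFI1-KI over Gfi1-WT ran from 0.79 without GFI1-KI replicate 3 to 1.44 without GFI1-KI replicate 1. In Gfi1-KO against Gfi1-WT the log2 fold change was −0.04 (SE 0.49, edgeR adjusted p = 1).

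Mtf2 was also the gene with the most varied transcripts, 15 of its 16 annotated ones being above 0 in at least 1 library. Mtf2-201, which codes for protein, made up 50.9% of its estimated counts over all libraries. Its share was 3.2, 78.9 and 59.2% in GFI1-KD, 50.2, 70.7 and 72.8% in Gfi1-KO and 50.6, 44.4 and 0% in GFI1-36N HSCs. In GFI1-KI it was 54.0, 31.4 and 28.9% and in Gfi1-WT 53.5, 59.2 and 48.0%, so that the genotypes overlapped. The lowest shares, 3.2% and 0%, belonged to GFI1-KD replicate 1 and GFI1-36N replicate 3, the libraries that correlated least with the rest. In GFI1-KD replicate 1, Mtf2-207, a transcript annotated for nonsense-mediated decay, took 46.1%. The same 2 libraries had the lowest shares of the main transcript of Tmed5, Tmed5-201, at 34.3% in GFI1-KD replicate 1 and 52.9% in GFI1-36N replicate 3. In the other 13 libraries Tmed5-201 held 72.4 to 94.6%. Whether these shares follow the quality of the libraries was not tested.

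**Figure D3:**
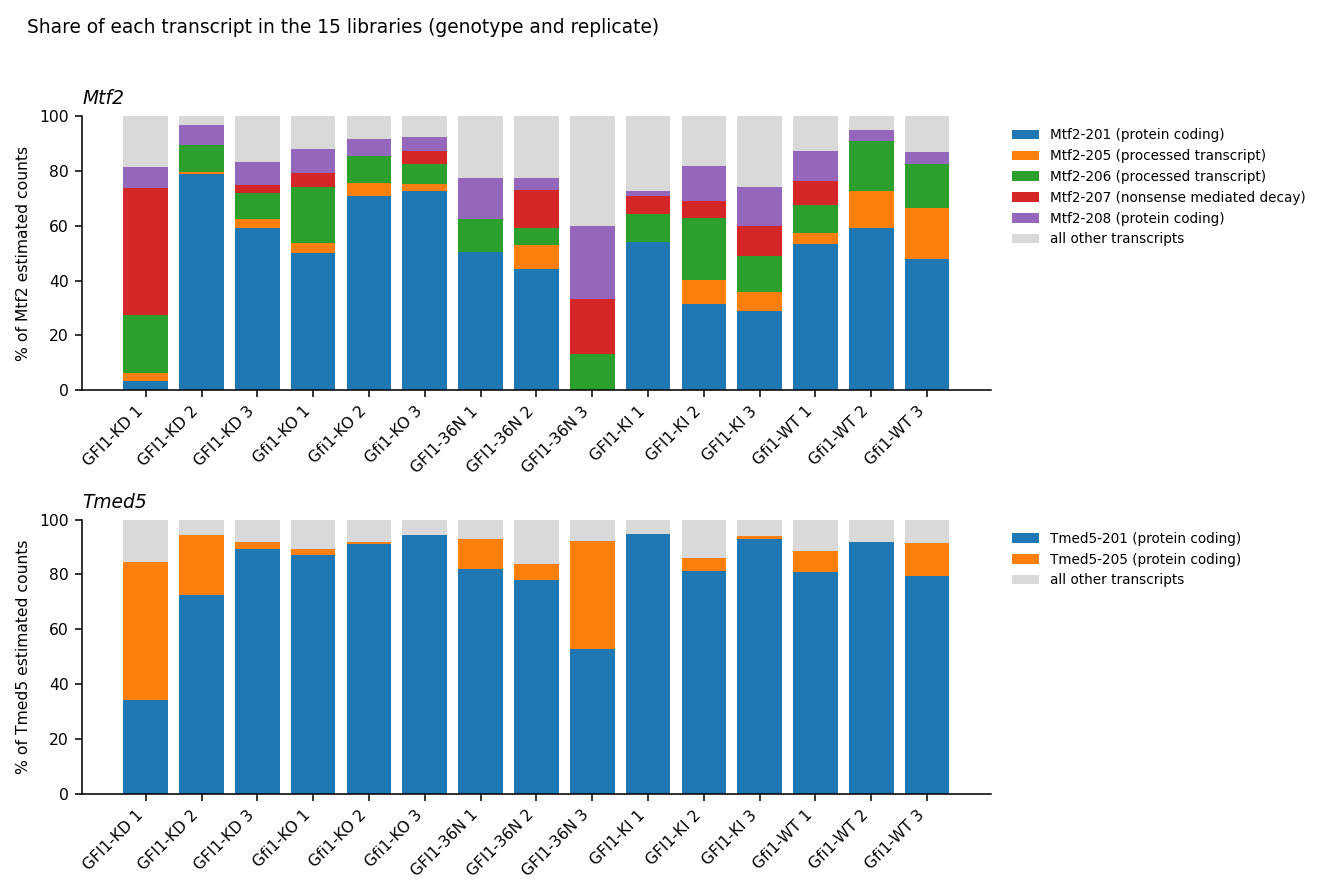
Share of each transcript in the estimated counts of Mtf2 and Tmed5 (y axis, %) in the 15 libraries (x axis, genotype and replicate); transcripts under 5% of the gene's total are pooled in grey. Mtf2-201 is at 3.2% in GFI1-KD replicate 1 and at 0% in GFI1-36N replicate 3. Tmed5-201 is also lowest in these libraries, at 34.3% and 52.9%.

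Dr1 encodes a subunit of NC2, which binds the TATA-binding protein and represses transcription, and is also a subunit of the ATAC histone acetyltransferase complex. It was read at 3.63, 74.2 and 25.7 CPM in GFI1-KD, 49.5, 16.9 and 80.5 CPM in Gfi1-KO and 37.5, 36.0 and 0.0625 CPM in GFI1-36N HSCs. In GFI1-KI it was at 14.9, 32.3 and 63.4 CPM and in Gfi1-WT at 52.4, 40.8 and 70.5 CPM. The 2 genotypes overlapped in each of the 5 comparisons, and 1 transcript, Dr1-201, took 99.9% of its counts. The log2 fold changes ran from −0.66 in GFI1-KD against Gfi1-WT (SE 1.42) to −0.09 in GFI1-KD against GFI1-KI (SE 1.41), all with an edgeR adjusted p of 1. When single libraries were left out, the first ran from −1.89 (without GFI1-KD replicate 2) to −0.13 (without GFI1-KD replicate 1). Dr1 was the farthest of the 8 from Gfi1.

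Rpap2 encodes a phosphatase of RNA polymerase II that also takes part in import of the enzyme into the nucleus. It had 0, 49.5 and 67.3 CPM in GFI1-KD, 32.2, 115.4 and 40.7 CPM in Gfi1-KO and 35.6, 24.5 and 0 CPM in GFI1-36N HSCs. GFI1-KI libraries had 28.5, 66.3 and 0 CPM and Gfi1-WT libraries 71.3, 56.7 and 11.9 CPM. Rpap2 is the nearest neighbour on the side of the Gfi1 3′ end, and the 2 genotypes overlapped in each of the 5 comparisons. The log2 fold change was 0.30 in GFI1-KD against GFI1-KI (SE 2.23) and 0.43 in Gfi1-KO against Gfi1-WT (SE 2.23, edgeR adjusted p = 1 for both). When 1 library was left out at a time, the first ran from −0.35 (without GFI1-KD replicate 3) to 1.45 (without GFI1-KI replicate 2), and the second from −0.32 (without Gfi1-KO replicate 2, which had the highest level) to 0.88 (without Gfi1-WT replicate 1).

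Glmn encodes glomulin, which binds RBX1 and holds back cullin-RING ubiquitin ligases. Its levels were 102.4, 105.4 and 23.0 CPM in GFI1-KD, 35.7, 8.14 and 55.6 CPM in Gfi1-KO and 30.2, 18.9 and 196.7 CPM in GFI1-36N HSCs. They were 22.4, 28.8 and 1.13 CPM in GFI1-KI and 75.5, 56.7 and 0 CPM in Gfi1-WT HSCs. The highest value, in GFI1-36N replicate 3, came from the library in which 4 of the other neighbours were at 0. Compared to GFI1-KI, the log2 fold change of Glmn was 2.14 in GFI1-KD (SE 1.75, interval −1.63 to 5.91) and 2.23 in GFI1-36N (SE 1.75), with an edgeR adjusted p of 1 for both. Over the fits without 1 library, the first ran from 1.59 (without GFI1-KI replicate 3) to 2.71 (without GFI1-KI replicate 2), and the second from 0.49 (without GFI1-36N replicate 3) to 2.79 (without GFI1-KI replicate 2). In Gfi1-KO against Gfi1-WT it was −0.41 (SE 1.68), with a range of −0.99 (without Gfi1-KO replicate 3) to 0.23 (without Gfi1-WT replicate 1).

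Evi5, the neighbour closest to Gfi1, encodes a TBC domain protein that binds RAB11 and acts in cytokinesis. It was read at 48.6, 8.04 and 23.0 CPM in GFI1-KD and at 5.39, 22.7 and 10.0 CPM in Gfi1-KO HSCs. GFI1-36N libraries had 0, 13.9 and 0 CPM, GFI1-KI libraries 0, 30.7 and 0 CPM and Gfi1-WT libraries 19.1, 0 and 0 CPM. Evi5 was thus above 0 in all 3 libraries of GFI1-KD and of Gfi1-KO and in 1 of 3 in each other genotype. This pattern was noticed after the values were seen, and the share of all genes that split in this way was not counted. At the gene level, the range of each pair of genotypes overlapped. The same libraries were at 0 in sums over transcripts, but the sizes moved in both directions. GFI1-KD had 790, 167 and 447 estimated counts at the gene level and 287, 349 and 491 in these sums. GFI1-KI replicate 2 had 642 and 178. In Gfi1-KO replicate 2, a transcript annotated as a retained intron held 85.2% of the Evi5 counts. The log2 fold change was 1.38 in GFI1-KD against GFI1-KI (SE 3.07), 2.06 in GFI1-KD against Gfi1-WT (SE 3.13) and 0.99 in Gfi1-KO against Gfi1-WT (SE 3.04), each with an edgeR adjusted p of 1. When each library was left out once, the first ran from 0.60 (without GFI1-KD replicate 1) to 11.89 (without GFI1-KI replicate 2) and the second from 1.28 (without GFI1-KD replicate 1) to 11.91 (without Gfi1-WT replicate 1). The last ran from 0.34 (without Gfi1-KO replicate 2) to 10.86 (without Gfi1-WT replicate 1). The upper end of each range leaves GFI1-KI or Gfi1-WT with Evi5 at 0 in both remaining libraries and is no measure of size. Over all 13358 genes, those with a mean of 5 to 20 CPM, the range of Evi5, were at 0 in a median of 2 libraries, and 77.5% of them were at 0 in 1 or more.

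Ccdc18 encodes a coiled-coil protein found at centriolar satellites in human cells. Its level was 74.4, 19.1 and 47.3 CPM in GFI1-KD, 43.5, 0 and 54.3 CPM in Gfi1-KO and 40.6, 56.3 and 0 CPM in GFI1-36N HSCs. The second Gfi1-KO value stands for 0.384 estimated counts before rounding. In GFI1-KI the level was 0.107, 28.9 and 12.7 CPM and in Gfi1-WT 48.4, 63.3 and 94.7 CPM, so that all GFI1-KI libraries were below all Gfi1-WT libraries. The log2 fold change was −2.31 (SE 2.16, unadjusted p = 0.305, edgeR adjusted p = 1). Ccdc18 and Mtf2, both on the upper side of Gfi1, thus had opposite signs in GFI1-KI against Gfi1-WT, at −2.31 and 1.15. In GFI1-KD against GFI1-KI the log2 fold change of Ccdc18 was 1.76 (SE 2.12) and in Gfi1-KO against Gfi1-WT −1.08 (SE 2.08). With each library left out in turn, the value for GFI1-KI against Gfi1-WT ran from −3.43 (without GFI1-KI replicate 2) to −1.74 (without GFI1-KI replicate 1) and that for GFI1-KD against GFI1-KI from 1.197 (without GFI1-KI replicate 1) to 2.87 (without GFI1-KI replicate 2). That for Gfi1-KO against Gfi1-WT ran from −1.65 (without Gfi1-KO replicate 3) to −0.47 (without Gfi1-KO replicate 2).

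Tmed5 encodes a p24 family protein, which sorts cargo between the endoplasmic reticulum and the Golgi. Its level was 161, 87.9 and 213 CPM in GFI1-KD, 300.9, 257.5 and 330.9 CPM in Gfi1-KO and 178, 174 and 139 CPM in GFI1-36N HSCs. In GFI1-KI it was 160, 197 and 189 CPM and in Gfi1-WT 201, 258.0 and 77.6 CPM. Gfi1-KO had the highest mean and overlapped with Gfi1-WT through 1 library each, at 257.5 CPM in Gfi1-KO replicate 2 and 258.0 CPM in Gfi1-WT replicate 2. Tmed5 averaged 296.4 ± 36.9 CPM in Gfi1-KO and 179.0 ± 92.2 CPM in Gfi1-WT HSCs (SD, n = 3 each). The log2 fold change was 0.73 (SE 0.42, interval −0.18 to 1.64, unadjusted p = 0.108, edgeR adjusted p = 1). With each library left out in turn it ran from 0.40 (without Gfi1-WT replicate 3) to 1.14 (without Gfi1-WT replicate 2). In GFI1-KD against GFI1-KI it was −0.24 (SE 0.42, interval −1.15 to 0.66, edgeR adjusted p = 1), and in GFI1-KI against Gfi1-WT 0.02 (interval −0.88 to 0.93).

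Btbd8 encodes a BTB domain protein that interacts with the clathrin adaptor AP-2 in neurons. It was at 0, 1.54 and 0 CPM in GFI1-KD and 0, 12.1 and 0 CPM in Gfi1-KO HSCs. The levels were 42.0, 0 and 0 CPM in GFI1-36N, 12.3, 12.8 and 18.3 CPM in GFI1-KI and 30.1, 0.0579 and 0 CPM in Gfi1-WT HSCs. GFI1-KI was the one genotype in which all 3 libraries were above 10 CPM, and all GFI1-KD libraries were below them. The log2 fold change of GFI1-KD against GFI1-KI was −4.79 (SE 3.80, unadjusted p = 0.228, edgeR adjusted p = 1). With each library left out in turn it ran from −11.02 (without GFI1-KD replicate 2) to −4.22 (without GFI1-KD replicate 1). The first of these leaves both GFI1-KD libraries at 0 and is no measure of size.

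The spread of each neighbour across the 15 libraries lay between the 10th and 90th percentiles of genes of its level. The coefficient of variation was 0.529 for Mtf2 and 0.361 for Tmed5, against a median of 0.374 (10th to 90th percentile 0.226 to 0.602) for 926 genes with a mean of 150 to 300 CPM. It was 1.03 for Glmn, 0.805 for Rpap2, 0.734 for Ccdc18 and 0.632 for Dr1, against a median of 0.809 (0.529 to 1.311) for 3179 genes of 20 to 60 CPM. For Btbd8 and Evi5 it was 1.51 and 1.19, against a median of 1.17 (0.70 to 1.91) for 3170 genes of 5 to 20 CPM.

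The pairs of genes that share a promoter region had low correlations in these libraries. Tmed5 and Ccdc18, whose RefSeq starts lie 294 bases apart, had a Spearman rho of 0.077 over the 15 libraries, and Glmn and Rpap2 a rho of 0.025. Both partners had at least 10 counts in 12 libraries for Tmed5 and Ccdc18 and in 11 for Glmn and Rpap2. Rpap2 had under 10 counts beside at least 10 counts of Glmn in 3 libraries, and the reverse occurred in 1. Over the 28 pairs of neighbours rho ran from −0.618 (Glmn and Mtf2) to 0.548 (Rpap2 and Tmed5), with a median of 0.054. Over a sample of pairs of tested genes of any kind the median was 0.025, and the 10th and 90th percentiles were −0.346 and 0.393. These correlations are descriptions, as the libraries share genotype and differ in the number of genes read.

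**Figure D4:**
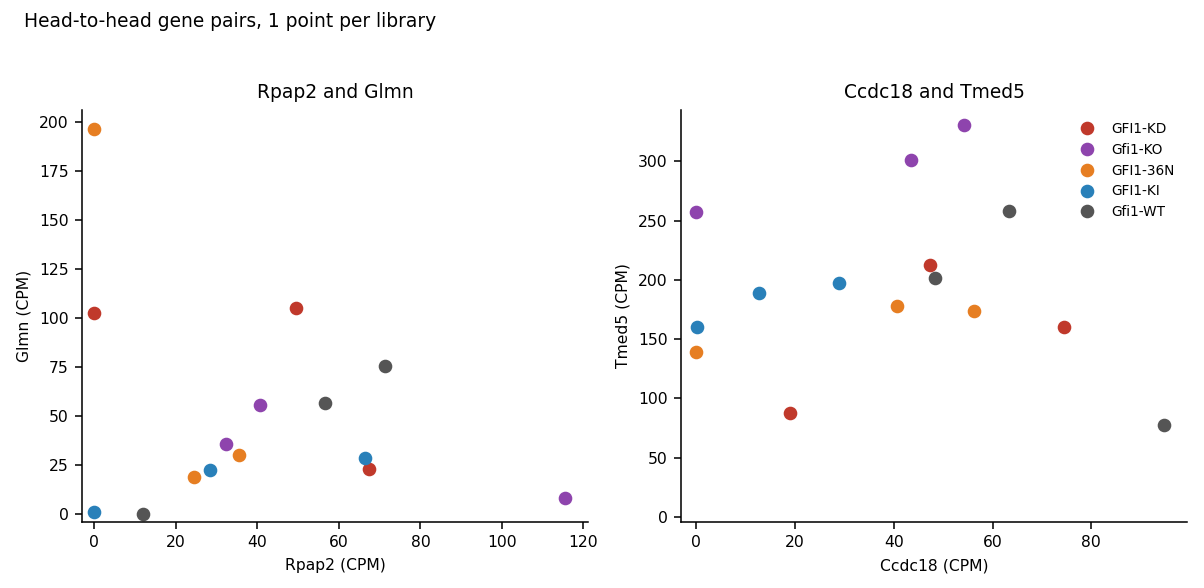
Levels of Rpap2 (x axis) and Glmn (y axis), left, and of Ccdc18 (x axis) and Tmed5 (y axis), right, in TMM-scaled CPM, 1 point per library, coloured by genotype. The points show no common trend (rho 0.025 and 0.077), and libraries drawn at 0 for 1 partner reach 197 CPM for Glmn and 257.5 CPM for Tmed5.

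For each neighbour the tested gene with the most similar pattern was found by Spearman rho of log2 CPM over the 15 libraries. Tprkb followed Ccdc18 (rho 0.94), Copa followed Dr1 (0.925), Wbp1 followed Evi5 (0.906) and Wbp4 followed Tmed5 (0.904). The others were Mgst1 for Rpap2 (0.892), 8030462N17Rik for Btbd8 (0.873), Mmadhc for Glmn (0.857) and Vmn1r224 for Mtf2 (0.854). Each is the highest value over all other genes tested and is given as a description.

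Other genes near Gfi1 gave no call either. Of 117 other genes annotated within 2000 kb of the Gfi1 start, 74 were in the table and 27 were tested, and 0 of them had an unadjusted p under 0.05 in any of the 5 comparisons (edgeR). The genotypes did not overlap for 4 of 27 in GFI1-KD against GFI1-KI (9.09% of all genes), 2 in GFI1-KD against Gfi1-WT (8.27%), 2 in Gfi1-KO against Gfi1-WT (8.95%), 2 in GFI1-36N against GFI1-KI (9.57%) and 1 in GFI1-KI against Gfi1-WT (8.65%). Outside the rule for naming genes, and named after their values were seen, these were Cdc7, Tgfbr3, Atp5k and Idua in GFI1-KD against GFI1-KI, and Cdc7 and Tgfbr3 both in GFI1-KD against Gfi1-WT and in GFI1-36N against GFI1-KI. They were Dipk1a and Pigg in Gfi1-KO against Gfi1-WT and Tgfbr3 in GFI1-KI against Gfi1-WT. Of the genes between the neighbours, Rpl5, a ribosomal protein gene, averaged 420.1 ± 86.4 CPM in GFI1-KD and 340.1 ± 52.6 CPM in GFI1-KI HSCs (SD, n = 3 each), with a log2 fold change of 0.30 (SE 0.30, edgeR adjusted p = 1). Dipk1a averaged 166.0 ± 9.62 CPM in Gfi1-KO and 99.5 ± 35.0 CPM in Gfi1-WT HSCs, and the 2 genotypes did not overlap (log2 fold change 0.74, SE 1.27, edgeR adjusted p = 1). Gm42669, the gene model that overlaps Btbd8 and Glmn, had 39.98, 62.2 and 44.4 CPM in GFI1-KD and 68.7, 46.0 and 53.2 CPM in GFI1-KI HSCs (log2 fold change −0.20, SE 0.68). It averaged 21.6 ± 10.3 CPM in Gfi1-KO and 38.5 ± 20.6 CPM in Gfi1-WT HSCs (log2 fold change −0.83, SE 0.68). 1700028K03Rik, which overlaps Glmn, averaged 1.03 ± 1.78 CPM in GFI1-KD and 0.32 ± 0.55 CPM in GFI1-KI HSCs (log2 fold change 1.66, SE 3.06).

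Genes that work with the neighbours also gave no call: of 8 lists of partner genes, 0 genes passed in either direction in any comparison (edgeR). Among 11 PRC2 genes, partners of Mtf2, 1 had an unadjusted p under 0.05 in each comparison but GFI1-KI against Gfi1-WT, where it was 0. Over all genes the share at an unadjusted p under 0.05 was 2.49% in GFI1-KD against GFI1-KI, 2.7% in GFI1-KD against Gfi1-WT, 3.07% in Gfi1-KO against Gfi1-WT, 4.6% in GFI1-36N against GFI1-KI and 2.09% in GFI1-KI against Gfi1-WT, which also stands beside the lists that follow. The median log2 fold change of the list was −0.06 in GFI1-KD against GFI1-KI. In GFI1-KD against Gfi1-WT the gene was Phf19, a Polycomb-like relative of Mtf2, at 0.02 ± 0.03 CPM in GFI1-KD and 17.9 ± 12.1 CPM in Gfi1-WT HSCs (SD, n = 3 each, unadjusted p = 0.0176, edgeR adjusted p = 1). Among 12 genes of NC2, TBP and ATAC, partners of Dr1, 0 had an unadjusted p under 0.05 in any comparison. Of 21 genes of RNA polymerase II and its import, partners of Rpap2, it was 1, Ctdp1, in GFI1-36N against GFI1-KI.

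Of 9 tested cullin-RING ligase genes, partners of Glmn, 1, Skp1, had an unadjusted p under 0.05 in GFI1-KI against Gfi1-WT and in GFI1-36N against GFI1-KI. The count was 0 in the other comparisons. In GFI1-KI against Gfi1-WT the median log2 fold change of the list was −0.07. Skp1 averaged 408.6 ± 32.9 CPM in GFI1-KI and 587.4 ± 114.3 CPM in Gfi1-WT HSCs (log2 fold change −0.52, SE 0.19, unadjusted p = 0.0153, edgeR adjusted p = 1). Of 11 genes of RAB11 traffic and abscission, partners of Evi5, 1, Cdca8, had an unadjusted p under 0.05 in 36N and in GFI1-KD against GFI1-KI, and in GFI1-KD against Gfi1-WT. The count was 0 in the other comparisons. The list medians were −1.03, −0.43 and −0.65 in these 3, 0.35 in Gfi1-KO against Gfi1-WT and 0.21 in GFI1-KI against Gfi1-WT. Cdca8, which encodes the chromosomal passenger protein borealin, averaged 112.6 ± 19.2 CPM in GFI1-36N and 267.7 ± 65.4 CPM in GFI1-KI HSCs. Its log2 fold change was −1.25 (SE 0.32, unadjusted p = 0.00172, edgeR adjusted p = 0.981). In GFI1-KD against GFI1-KI it was −1.05 (SE 0.32, unadjusted p = 0.00552, edgeR adjusted p = 1), with the same GFI1-KI libraries. Of 8 tested p24 genes, relatives of Tmed5, 2 had an unadjusted p under 0.05 in Gfi1-KO against Gfi1-WT, 1 in GFI1-KD against GFI1-KI and 0 in the other comparisons. Tmed10, the one with the lowest p, averaged 999.2 ± 203.8 CPM in Gfi1-KO and 616.3 ± 68.8 CPM in Gfi1-WT HSCs (log2 fold change 0.70, SE 0.25, unadjusted p = 0.0146, edgeR adjusted p = 1). In the same comparison 2 of the 8 had a positive and 6 a negative value, with a median of −0.20. Of 8 clathrin and AP-2 genes, partners of Btbd8, 1, Cltc, had an unadjusted p under 0.05 in each of the comparisons that include GFI1-KI. The count was 0 in the other comparisons. The median of the list was 0.02 in GFI1-KD against GFI1-KI. Cltc, the clathrin heavy chain, averaged 200.9 ± 24.4 CPM in GFI1-KD and 96.1 ± 17.2 CPM in GFI1-KI HSCs (log2 fold change 1.06, SE 0.39, unadjusted p = 0.0178, edgeR adjusted p = 1). Gfi1-WT HSCs averaged 185.8 ± 31.9 CPM of Cltc. Its log2 fold change was 0.11 in GFI1-KD against Gfi1-WT and −0.95 in GFI1-KI against Gfi1-WT (SE 0.39 for both), so that GFI1-KI was the lower group. Of 9 tested centriolar satellite genes, 2, Cep131 and Cep72, had an unadjusted p under 0.05 in GFI1-36N against GFI1-KI, and 0 in the other comparisons. Both were at 0 in all GFI1-36N libraries, against 6.32 ± 6.13 and 40.9 ± 66.4 CPM in GFI1-KI HSCs (SD, n = 3 each, unadjusted p = 0.0139 and 0.0272, edgeR adjusted p = 0.981 for both). The 2 genotypes did not overlap for 1 of the 9 genes, beside 9.57% of all genes. The list median was −0.82 there and −0.72 in GFI1-KD against GFI1-KI.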

How the data were processed

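Bulk RNA-seq of sorted mouse HSCs, after poly(A) selection, gave 15 libraries (5 genotypes, 3 libraries each). Reads were assigned by the authors to murine Ensembl transcripts (GRCm38) using Salmon, with bias correction. The estimated counts deposited by the authors were made from TPM scaled by length and are not normalized between libraries. Their own tests used sleuth 0.30.0 in R 4.2.1, per the labels. Columns were matched to the labels by number alone, which no text states in words. A row without a symbol, 0.0068 to 0.0719% of a library, was left out.

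Counts were rounded and tested by edgeR 4.0.16 (R 4.3.3), using TMM factors, the low-count rule of filterByExpr (minimum count 10, minimum total 15), a quasi-likelihood fit of all 15 libraries and Benjamini-Hochberg adjustment over 13358 genes, with a threshold of 0.05. The SE of a log2 fold change is its size over the root of F, and 95% intervals use the degrees of freedom of the fit. Log2 CPM had a prior count of 2. Levels per kilobase came from the deposited transcript counts divided by transcript length. The script was tested on simulated data with known changes. Alternatives were RLE factors, no filter, DESeq2 1.42.0, only the 2 genotypes compared, a block for replicate number, omission of each library, and sums over transcripts. Positions are those of GENCODE M21 on GRCm38 and promoters those of RefSeq.

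The members, gene lists and tests were chosen with earlier results of these data known. All 8 members are named; of genes within 2000 kb of Gfi1, those with an unadjusted p under 0.05 (at most 5 a comparison) or between 2 members; of each partner list, at most 2 with the lowest p; and for each member the most similar gene. Depth was 16.22 to 20.64 M estimated counts a library, and the median SE of a log2 fold change was 1.62.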

Additional observations from a re-analysis of the deposited data

How the results depend on the processing

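In every alternative 0 of the 8 genes passed, and the lowest adjusted p of a neighbour was 0.53, for Mtf2 in GFI1-36N against GFI1-KI with DESeq2, which gave no adjusted p for Btbd8. Of 436 alternative log2 fold changes of the neighbours 401 kept their sign and 35 changed it, 32 of them when 1 library was left out, and no value involved was a call. Over all genes DESeq2 called 167 genes in GFI1-KD against GFI1-KI, 179 in GFI1-KD against Gfi1-WT, 185 in Gfi1-KO against Gfi1-WT, 360 in GFI1-36N against GFI1-KI and 130 in GFI1-KI against Gfi1-WT, where edgeR called 0 in each. The fit of only the 2 genotypes called 1 gene in GFI1-36N against GFI1-KI. TMM and RLE factors shifted the median of all genes by at most 0.02. The cause of these differences was not tested.

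Replicate numbers were not treated as pairs: 1 of 30 same-numbered pairs correlated above 0.1, and 4 of 15 libraries correlated best with their own number. With the replicate block, 0 neighbours passed, the median of the neighbours in GFI1-KD against GFI1-KI was 0.79, Rpap2 in GFI1-KD against Gfi1-WT 0.76, Btbd8 in Gfi1-KO against Gfi1-WT 1.298 and Evi5 in GFI1-KI against Gfi1-WT −4.88. It changed no call.

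With each library left out in turn, the log2 fold changes that changed sign had these ranges. In GFI1-KD against GFI1-KI they were −1.33 to 0.55 for Dr1, −0.35 to 1.45 for Rpap2 and −0.54 to 0.037 for Tmed5. In GFI1-KD against Gfi1-WT they were −10.45 to 3.83 for Btbd8, −0.91 to 0.33 for Rpap2 and −0.57 to 0.17 for Tmed5. In Gfi1-KO against Gfi1-WT they were −10.48 to 6.81 for Btbd8, −0.70 to 0.29 for Dr1, −0.99 to 0.23 for Glmn, −0.20 to 0.11 for Mtf2 and −0.32 to 0.88 for Rpap2. In GFI1-36N against GFI1-KI they were −11.03 to 0.54 for Btbd8, −1.03 to 0.059 for Dr1, −10.49 to 9.38 for Evi5 and −1.36 to 0.49 for Rpap2. In GFI1-KI against Gfi1-WT they were −0.019 to 8.64 for Btbd8, −9.84 to 10.50 for Evi5, −1.71 to 0.027 for Rpap2 and −0.33 to 0.41 for Tmed5. The median of the neighbours in GFI1-KD against GFI1-KI ran from −0.14 to 0.64, the highest without GFI1-KI replicate 2, and 0 to 1 genes passed in Gfi1-KO against Gfi1-WT, 1 without Gfi1-KO replicate 1.

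Sums over transcripts were within 1 SD of the gene level in 38 of 40 means, the exceptions being Mtf2 in Gfi1-KO and Gfi1-WT. That SD is the spread of the 3 libraries of a genotype, a wide limit where they differ, so single values could lie far apart within it. Evi5 in GFI1-KI replicate 2 had 642 estimated counts at the gene level and 178 in the sum over transcripts. For Mtf2 these were 10979 and 6504 in GFI1-KI replicate 3, and 3459 and 5586 in GFI1-KD replicate 2. The SE was 1.41 or more for Btbd8, Evi5, Rpap2, Glmn, Ccdc18 and Dr1, and 0.49 or less for Mtf2 and Tmed5. Whether depth or the values at 0 set it was not tested.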

Other observations

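Outside the 8 genes, Tgfbr3, which encodes the TGF-beta co-receptor betaglycan and starts at −436.4 kb from the Gfi1 start (negative on the side of Btbd8), had a pattern that was noticed after the values were seen. It was at 951, 717 and 821 CPM in GFI1-KD, at 66.9, 0 and 56.6 CPM in Gfi1-KO and at 660, 754 and 877 CPM in GFI1-36N HSCs. In GFI1-KI it was at 542, 416 and 439 CPM and in Gfi1-WT at 27.8, 68.9 and 415 CPM. All 9 libraries with a human GFI1 allele were thus above all 6 libraries without one. The closest pair was GFI1-KI replicate 2 at 416.5 CPM and Gfi1-WT replicate 3 at 415.2 CPM. The share of all genes that split these 9 and 6 libraries in the same way was not counted. None of the comparisons gave a call, with a log2 fold change of 2.28 in GFI1-KD against Gfi1-WT (SE 1.32, unadjusted p = 0.108, edgeR adjusted p = 1) and 1.45 in GFI1-KI against Gfi1-WT (SE 1.29, unadjusted p = 0.281, edgeR adjusted p = 1). A contrast of human with murine alleles was not tested.

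Cdc7, a kinase gene that starts at −761.7 kb, had 69.4, 55.9 and 67.1 CPM in GFI1-KD and 52.2, 31.4 and 0 CPM in GFI1-36N, against 153, 145 and 90.7 CPM in GFI1-KI HSCs. The 0 is from GFI1-36N replicate 3, the library with the fewest genes. Gfi1-KO had 84.0, 121.5 and 166.5 CPM and Gfi1-WT 167.8, 135.7 and 75.2 CPM. In both comparisons with GFI1-KI the genotypes did not overlap, beside 9.09% and 9.57% of all genes, and edgeR gave adjusted p-values of 1 and 0.987.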
